A study of Homo sapiens with 33 samples.

Results

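The 9 genes described here are the transcription factor NRF2 (gene NFE2L2), its inhibitor KEAP1 and 7 genes that NRF2 is known to switch on: NQO1, HMOX1, GCLC, GCLM, TXNRD1, SRXN1 and AKR1C1. They were taken by gene name from a matrix of 58302 genes, and all 9 passed the filter of at least 100 CP20M in at least 1 library, which kept 17803 genes. CP20M means counts per 20000000 reads, the scale on which the values were deposited. In unstressed cells KEAP1 holds NRF2 and feeds it to a CUL3 ubiquitin ligase, so that the protein is destroyed. Oxidants and electrophiles modify cysteines of KEAP1, NRF2 then builds up in the nucleus, pairs with a small MAF protein and binds antioxidant response elements. NRF2 is controlled mainly at the protein level, so the mRNA of NFE2L2 is no measure of its activity.

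RNA-seq libraries of 6 established human cell lines were compared. H2052, H2452, H28 and MSTO-211H are malignant pleural mesothelioma (MPM) lines that the study classed as sensitive to palbociclib, an inhibitor of CDK4 and CDK6. MPP89, which is an MPM line too and carries an RB1 mutation, and MeT-5A, normal mesothelial cells immortalized by SV40, were classed as resistant. Each line is a single model, and RB1 mutation or SV40 came with every resistant line, so the line, its class and its RB1 or SV40 background cannot be told apart. Cells received palbociclib at 1 µM, or DMSO at 0.1%, over 9 days in experiments 1 and 2 of H2452, H28 and MSTO-211H, in experiment 1 of H2052 and in both resistant lines, and for 10 days in experiment 3 of these 3 lines and experiment 2 of H2052. This gave 2 pairs of libraries in H2052, 3 each in H2452, H28 and MSTO-211H, 2 in MPP89 and 1 in MeT-5A, or 11 sensitive and 3 resistant pairs. MeT-5A had 1 further library of untreated cells. In the 10-day experiment of each sensitive line, 1 more library was made 48 hours after the drug was washed out.

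Every column added up to between 20007662 and 20021400 CP20M, and the values skip whole numbers in a way that gave the depth of 23 libraries, from 12780000 to 19820000 counted reads. In these, 1 read was worth at most 1.56 CP20M. Replicates correlated over the tested genes with r from 0.967 to 0.993. The keratins KRT8 and KRT18, which mesothelial cells make, were at 3480 CP20M or more and 1497 or more in all 33 libraries, and the mesothelial markers CALB2, WT1, UPK3B, PDPN and KRT19 were at 0 in 1 to 10 of them. The summed level of 9 mesothelial markers ran with palbociclib from 111291 to 140628 CP20M in MSTO-211H against 41995 to 56752 in DMSO, from 28543 to 52420 in H2452 against 44447 to 74807, from 104725 to 111495 in H2052 against 73221 to 92997, and from 14451 to 20816 in H28 against 11300 to 14234. Keratins weigh most in this sum, and KRT8 had the highest control mean of the 9 in every line. In MSTO-211H controls KRT8 averaged 29943 and KRT18 17131 CP20M, beside 650 for MSLN. MSLN and LRRN4, also among the 9, ran down to 1 and 2 CP20M. The sum does not show which of the 9 changed. Its ranges overlapped in H2452 and not in the other 3 sensitive lines, and the part of these markers in the results below was not tested. Of the leukocyte markers CD3E was at 0 in all 33 libraries, PTPRC did not exceed 42 CP20M and CD68 reached 1844. The lung epithelial markers NKX2-1, SFTPB and EPCAM stayed at or under 88 CP20M and the endothelial PECAM1 and CDH5 at or under 120. In these bulk libraries, fewer expressing cells and less mRNA per cell cannot be told apart.

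Sequence upstream of the genes was looked at first, because NRF2 acts through a short motif. The core TGACNNNGC was searched on both strands in the 250 bases before each listed transcript start (RefSeq, GRCh38.p14), where 10.9% of all 35116 promoters hold it. For the members the table holds 11 promoters of 8 genes, and 4 promoters of 3 genes (GCLM, TXNRD1 and KEAP1) had a match. These are shown 5′ to 3′ on the strand of the gene, with the matched bases in capitals.
GCLM, chr1:93909446-93909474, minus strand: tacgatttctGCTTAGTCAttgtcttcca
KEAP1, chr19:10502784-10502812, minus strand: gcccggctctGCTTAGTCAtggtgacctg
KEAP1, chr19:10502807-10502835, minus strand: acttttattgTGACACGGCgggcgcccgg
TXNRD1, chr12:104286920-104286948, plus strand: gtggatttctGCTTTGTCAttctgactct
TXNRD1, chr12:104215670-104215698, plus strand: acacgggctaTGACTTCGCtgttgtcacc
The matches of GCLM and of the first KEAP1 line have the same 9 bases, TGACTAAGC when read on the opposite strand, and lie 34 to 26 and 31 to 23 bases before the start. Both KEAP1 matches belong to the second of its 2 listed starts. The windows of NFE2L2, NQO1, GCLC, SRXN1 and AKR1C1 did not hold these letters. Enhancers further upstream were not searched.

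The members lie on 9 different chromosomes of GRCh38 (positions from GENCODE 44). NFE2L2 (ENSG00000116044) is at chr2:177218667-177392756, KEAP1 (ENSG00000079999) at chr19:10486125-10503558, and NQO1 (ENSG00000181019) at chr16:69706996-69726668. HMOX1 (ENSG00000100292) is at chr22:35380361-35394214, GCLC (ENSG00000001084) at chr6:53497341-53616970, and GCLM (ENSG00000023909) at chr1:93885199-93909456. TXNRD1 (ENSG00000198431) is at chr12:104215779-104350307, SRXN1 (ENSG00000271303) at chr20:646615-653200, and AKR1C1 (ENSG00000187134) at chr10:4963253-4983283. Values are for whole genes, so exons and isoforms are not resolved. Of the exonic bases of SRXN1, 90.7% also belong to a second annotated gene of the same strand, AL121758.1, which was listed at 94.1% to 98.6% of the SRXN1 value in every library, so reads of these genes cannot be told apart. AC092115.2 overlaps 19.4% of the exonic bases of NQO1 on the opposite strand and was at 10.3% to 18.2% of NQO1. HNRNPA3, also on the opposite strand, overlaps 23.4% of those of NFE2L2. GCLC shares 3.5% of its exonic bases with GCLC-AS1 on the opposite strand, which reached 248 CP20M. A further 6.1% is shared with a non-coding gene of the same strand, which reached 21 CP20M. The strand setting used in counting is not given in the sources used here, so reads of such partners cannot be told apart.

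The first question was how the 9 genes differ between lines without the drug. The 14 DMSO libraries and the untreated one were compared with limma on log2(CP20M + 10), and all 9 members differed among the 6 lines (F test, adjusted p from 6.2e-08 for AKR1C1 to 0.0029 for SRXN1). So did 96.3% of all tested genes, so the members' count says nothing particular to them. Of the 135 contrasts between lines (15 for each member), 81 were called at a fold of 1.5 and an adjusted p under 0.05, against 39.4% to 55.2% of all genes in the 15 contrasts.

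NFE2L2, the activator, and KEAP1, the inhibitor, varied least. NFE2L2 was at 3209 ± 88.7 CP20M in H28 (SD, n = 3), 2704 ± 125 in H2452 (SD, n = 3), 2583 ± 436 in MeT-5A (SD, n = 2), 2557 ± 344 in MSTO-211H (SD, n = 3), 2214 ± 330 in MPP89 (SD, n = 2) and 1456 ± 181 in H2052 (SD, n = 2). Among neighbours in this order, the step from MPP89 down to H2052 was the one called (limma, log2 difference 0.60, adjusted p = 0.0068). KEAP1 fell into 2 levels. H2452 was at 2923 ± 129 CP20M (SD, n = 3) and H28 at 2714 ± 394 (SD, n = 3). MeT-5A was at 1501 ± 313 (SD, n = 2), MPP89 at 1411 ± 67.9 (SD, n = 2), H2052 at 1330 ± 39.6 (SD, n = 2) and MSTO-211H at 1135 ± 73.7 (SD, n = 3). The step between H28 and MeT-5A was called (limma, log2 difference 0.86, adjusted p = 0.00015) and the other steps were not.

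HMOX1, the inducible haem oxygenase that breaks haem down to biliverdin, iron and carbon monoxide, set H28 apart. Its DMSO libraries had 23900, 20525 and 23826 CP20M in H28. H2052 had 3649 and 1423, MPP89 1817 and 836, and MeT-5A 1400 with DMSO and 1066 untreated. In H2452 they had 1027, 646 and 954, and in MSTO-211H 1285, 613 and 518. H28 was thus above every control library of the other lines, by 3.31 on the log2 scale over the next line, H2052 (limma, adjusted p = 1.5e-05). Among the other 5 lines no step between neighbours was called, but H2052 was above H2452 by 1.40 and above MSTO-211H by 1.61 on the log2 scale (limma, adjusted p = 0.013 and 0.0063).

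GCLC and GCLM encode the catalytic and the modifier subunit of glutamate-cysteine ligase, which makes the first and rate-limiting step of glutathione synthesis, and both were highest in H28. In GCLC, H28 was at 1740 ± 646 CP20M (SD, n = 3), MSTO-211H at 1250 ± 141 (SD, n = 3) and H2452 at 830 ± 305 (SD, n = 3), and both H2052 libraries were at 304. GCLM was at 4746 ± 884 CP20M in H28 (SD, n = 3), 2279 ± 202 in MPP89 (SD, n = 2), 2187 ± 614 in H2452 (SD, n = 3), 1305 ± 53.1 in MSTO-211H (SD, n = 3), 1269 ± 15.6 in MeT-5A (SD, n = 2) and 1015 ± 85.6 in H2052 (SD, n = 2). For GCLM the steps from H28 to MPP89 and from H2452 to MSTO-211H were called, and for GCLC those from MSTO-211H to H2452 and from MeT-5A to H2052. The 2 subunits did not keep 1 order, since MSTO-211H followed H28 in GCLC and came after H28, MPP89 and H2452 in GCLM.

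NQO1 (a quinone reductase that uses NADH or NADPH), TXNRD1 (the cytosolic thioredoxin reductase) and SRXN1 (sulfiredoxin, which restores overoxidized peroxiredoxins) were highest in H2452 or MSTO-211H. NQO1 had 16843, 9272 and 15443 CP20M in H2452 and 14699, 13925 and 9909 in MSTO-211H. In H28 it had 10916, 8211 and 8729, in MPP89 5934 and 6276, and in MeT-5A 6128 with DMSO and 3944 untreated. H2052 was lowest at 1880 and 1911, and among neighbours in this order that last step was the one called (limma, log2 difference 1.37, adjusted p = 0.0010). Of all 15 contrasts between lines 10 were called for NQO1, and H2452 and MSTO-211H were each called above MPP89 and MeT-5A. TXNRD1 ran from 48812 ± 6764 CP20M in MSTO-211H (SD, n = 3) to 12188 ± 1725 in MeT-5A (SD, n = 2). SRXN1 ran from 4763 ± 2069 in H2452 (SD, n = 3) to 1353 ± 197 in MPP89 (SD, n = 2). Per kilobase of exon, TXNRD1 had the highest level of the 9 in 5 lines, from 1816 CP20M per kb in MeT-5A to 7275 in MSTO-211H. In H28 HMOX1 was first at 9866 CP20M per kb and TXNRD1 second at 4522.

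AKR1C1, an aldo-keto reductase of steroids and carbonyls, spanned the widest range. Its DMSO libraries had 7304, 1876 and 7008 CP20M in H2452, 706 and 1060 in MPP89, and 1121, 1083 and 376 in H28. MSTO-211H had 288, 185 and 160, and H2052 39 and 62. MeT-5A had 2 CP20M with DMSO and 0 in the untreated library, where a count of 0 allows up to 4.5 CP20M (3 reads, counting error only). Of the steps in this order, 4 of 5 were called, all but that between MPP89 and H28. AKR1C1 shares most of its sequence with AKR1C2, so reads may have been split between them. The neighbouring AKR1C2 had its highest control value in H28, at 2499 CP20M, whereas it was at 599, 133 and 337 in H2452, and AKR1C3 had 3955 to 6384 in H28 and 2484 to 5018 in H2452. AKR1C4 did not exceed 74 CP20M in any library.

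**Figure D1:**
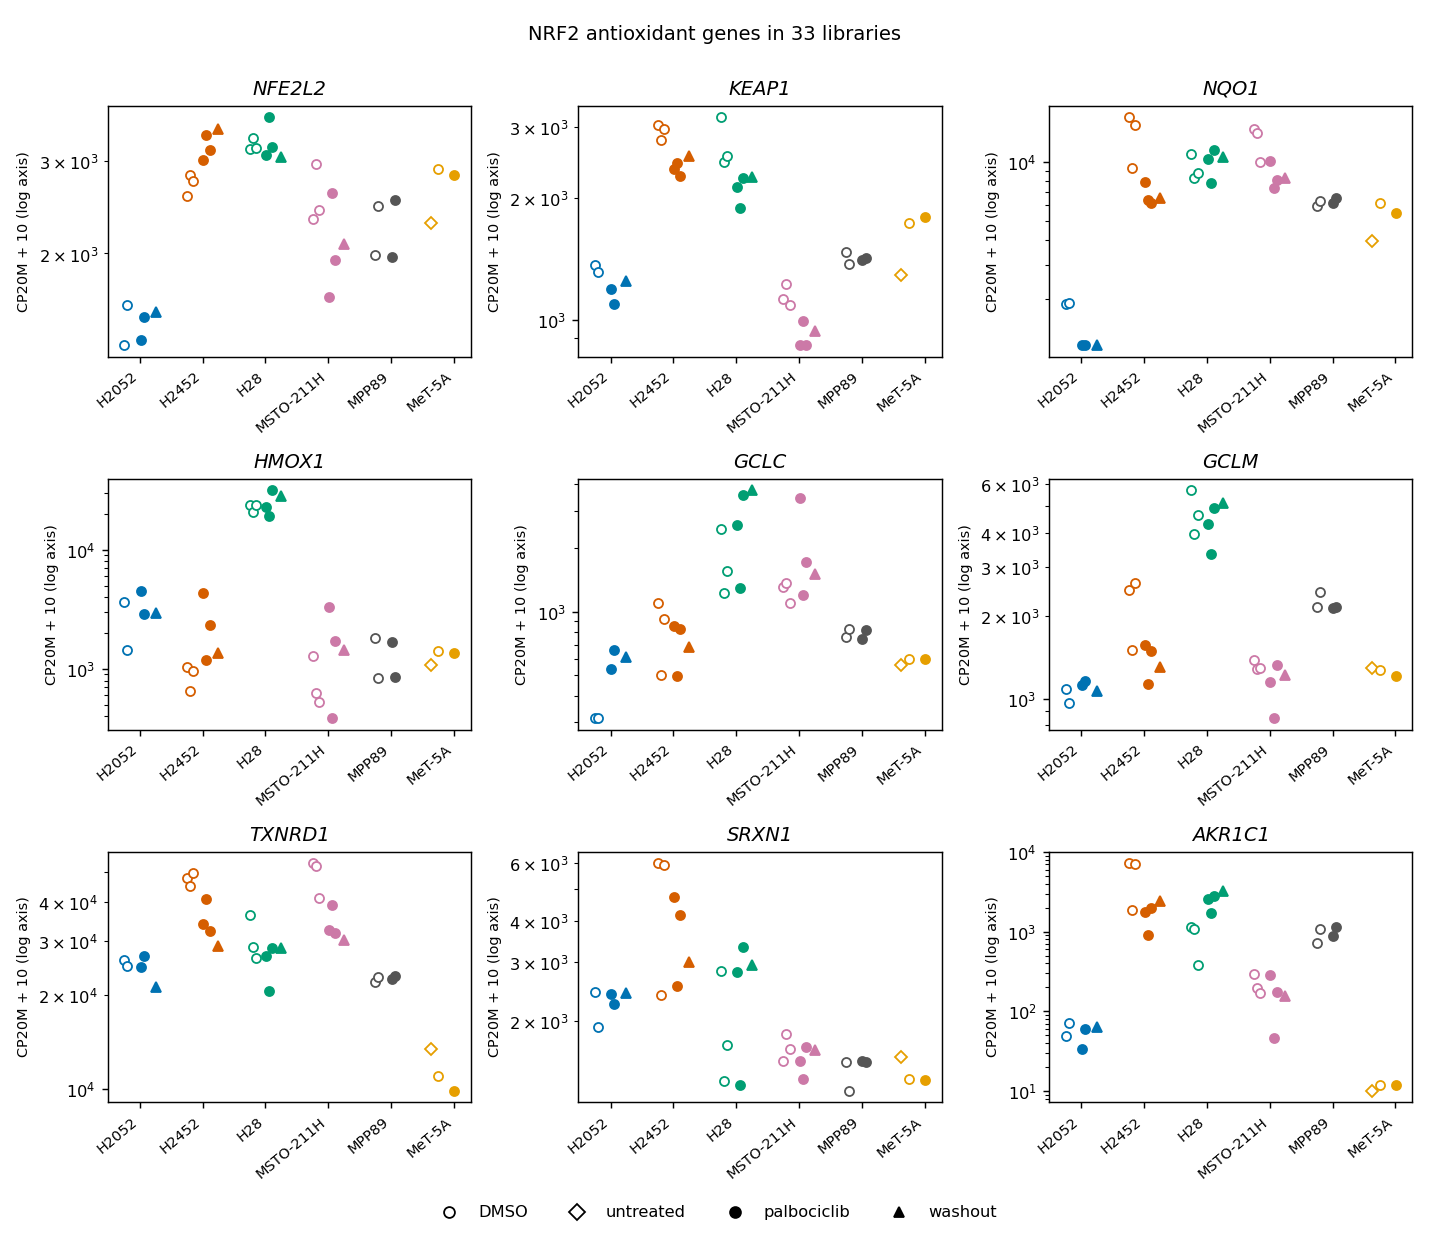
CP20M + 10 on log axes for the 9 genes in all 33 libraries, by line and condition (open circles DMSO, open diamond untreated, filled circles palbociclib, triangles washout; 1 symbol is 1 library). HMOX1 is at 19321 CP20M or more in every H28 library and at 4477 or less in every other, and AKR1C1 runs from 0 to 2 CP20M in MeT-5A to 7304 in H2452.

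The second question was what 9 or 10 days of palbociclib did to these genes. Over the 11 pairs of sensitive lines, 1 of the 9 was called higher and 0 lower, where 5.58% of all tested genes were called higher and 9.37% lower. The called gene was HMOX1. Of the other 8, 4 had an adjusted p under 0.05 with a mean change below the 1.5-fold threshold, all toward lower values. In this fit 9819 of the 17803 genes had an unadjusted p under 0.05 (limma). Small p without a large change were thus common, and these 4 are not read as a trait of the members. The 11 pairs are repeats within 4 lines, so SE and p over them take pairs, and not lines, as replicates. The median log2 change of the members was -0.27, beside -0.11 over all genes. Scaling by the median of ratios moved the median of all genes to 0.06 and that of the members to -0.07, so small changes below are best read relative to the median of all genes.

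HMOX1 went in H2452 from 1027 to 4312, 646 to 1176 and 954 to 2329 CP20M in its 3 pairs. In H2052 it went from 3649 to 4477 and from 1423 to 2880. In MSTO-211H it went from 1285 to 3280, 613 to 377 and 518 to 1694. H2452 was the line whose groups did not overlap, and experiment 2 of MSTO-211H went the other way. H28, the line with the high level, had 23900, 20525 and 23826 CP20M with DMSO and 22738, 19321 and 31632 with palbociclib, and its groups overlapped. Over the 11 pairs the log2 change was 0.74 ± 0.22 (SE; limma, adjusted p = 0.014), and 8 of 11 pairs were higher. Without the block for experiment its adjusted p was 0.054, and with the means of the 4 lines as units 0.055.

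NQO1 was lower with palbociclib in 10 of 11 pairs. In H2452 it went from 16843 to 7923, 9272 to 6397 and 15443 to 6169 CP20M, and in H2052 from 1880 to 1165 and 1911 to 1158. In MSTO-211H it went from 14699 to 10034, 13925 to 7377 and 9909 to 8033. In H28 it went from 10916 to 10302, 8211 to 7826 and, in the pair that was higher, 8729 to 11514. The groups did not overlap in H2452 or H2052, and overlapped in H28 and MSTO-211H. The log2 change over 11 pairs was -0.53 ± 0.13 (SE; limma, adjusted p = 0.0052), below the fold threshold. It passed that threshold (-0.63) without experiment 3 of H28, and with median-of-ratios scaling it was -0.34 with an adjusted p of 0.055.

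KEAP1 was lower in 11 of 11 sensitive pairs, with line means from -0.38 in H28 to -0.23 in H2052 on the log2 scale, although H2052 turned to as much as 0.13 under the other scalings. The median was 2447 CP20M (1075 to 3167) in DMSO libraries and 1884 (854 to 2437) in palbociclib libraries. The log2 change was -0.32 ± 0.05 (SE; limma, adjusted p = 0.00014), again below the fold threshold. Taking the means of the 4 lines as units gave -0.31 (limma, adjusted p = 0.051). With median-of-ratios scaling it was -0.13, lower in 8 of 11 pairs, with an adjusted p of 0.10. NFE2L2 had a log2 change of -0.02 ± 0.07 (SE; limma, adjusted p = 0.80), and 0.17 under that scaling (adjusted p = 0.069).

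TXNRD1 and GCLM were the other members with an adjusted p under 0.05. TXNRD1 had a median of 41031 CP20M (24874 to 53289) in DMSO and of 31809 (20596 to 40769) in palbociclib. Its log2 change was -0.32 ± 0.09 (SE; limma, adjusted p = 0.0099), with 9 of 11 pairs lower. GCLM had a median of 1484 (954 to 5694) in DMSO and of 1313 (839 to 4902) in palbociclib, a log2 change of -0.27 ± 0.10 (SE; limma, adjusted p = 0.034), with 7 of 11 pairs lower. With median-of-ratios scaling the changes were -0.12 and -0.07, and neither kept an adjusted p under 0.05 (0.35 and 0.61). GCLC was at 0.41 ± 0.17 (SE; limma, adjusted p = 0.054), so the mean changes of the catalytic and the modifier subunit had opposite signs. Under that scaling GCLC was called, at 0.60 with an adjusted p of 0.017. Over the 14 pairs the changes of GCLC and GCLM still correlated (r = 0.659). Their line means had the same sign in H2052 and H2452, and opposite signs in H28 and MSTO-211H. SRXN1 (-0.00 ± 0.11) and AKR1C1 (-0.28 ± 0.39) had adjusted p of 0.99 and 0.57 (limma).

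**Figure D2:**
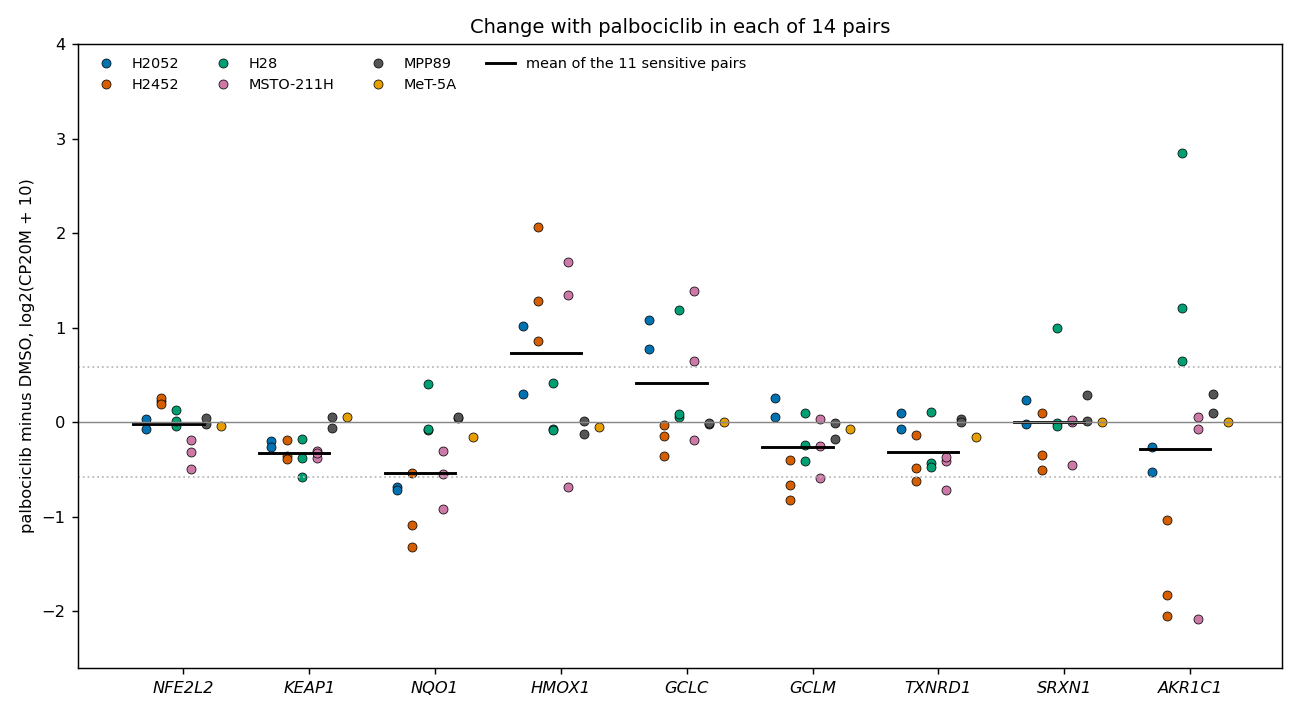
Palbociclib minus DMSO on the log2(CP20M + 10) scale for each of the 14 pairs, by gene and line. Black bars are the means of the 11 sensitive pairs and dotted lines mark a 1.5-fold change. All 11 sensitive pairs of KEAP1 lie below 0, and the pairs of AKR1C1 run from -2.08 to 2.85.

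The lines were then taken one at a time. In H2052, 1 of 9 members was called higher and 1 lower, beside 4.67% and 13.0% of all genes. GCLC rose from 304 to 528 and from 304 to 652 CP20M (limma, log2 change 0.93 ± 0.14, SE, adjusted p = 0.042). NQO1 fell by 0.70 on the log2 scale (limma, adjusted p = 0.038), and by 0.39, no longer called, with median-of-ratios scaling, under which the median of all genes in this line moved from -0.24 to 0.03. Leaving out 1 of the 2 pairs leaves no spread within H2052, so that fit took the spread from the pairs of the other sensitive lines and assumed that the lone pair varies like them. NQO1 was then at -0.72 or -0.69 and GCLC at 1.08 or 0.78 on the log2 scale, and neither was called (limma, adjusted p from 0.11 to 0.29).

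H2452 had the most calls, with 1 of 9 members higher and 3 lower, where 6.04% of all genes were called higher and 10.8% lower. HMOX1 rose by 1.40 ± 0.26 on the log2 scale (SE; limma, adjusted p = 0.030). AKR1C1 went from 7304 to 1758, 1876 to 909 and 7008 to 1962 CP20M, a log2 change of -1.64 ± 0.23 (SE; limma, adjusted p = 0.020). NQO1 had a log2 change of -0.98 ± 0.18 (SE; limma, adjusted p = 0.029). GCLM went from 2458 to 1552, 1484 to 1118 and 2618 to 1478 CP20M, and its log2 change was -0.63 ± 0.10 (SE; limma, adjusted p = 0.023). It was -0.43 with median-of-ratios scaling, below the fold threshold. None of the 4 was called without experiment 1 or without experiment 3 of this line, and HMOX1 was not called without experiment 2 either. Without the block, NQO1 alone was called.

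In H28 none of the 9 was called, where 5.89% of all genes were called higher and 7.34% lower. AKR1C1 went from 1121 to 2595, 1083 to 1697 and 376 to 2777 CP20M, and all 3 palbociclib libraries were above all 3 DMSO libraries. The log2 change was 1.57 ± 0.47 (SE; limma, adjusted p = 0.087), and it was called, with an adjusted p of 0.020, when genes were filtered within this line. GCLC went from 2459 to 2558, 1210 to 1287 and 1551 to 3549, and SRXN1 from 2822 to 2802, 1300 to 1262 and 1672 to 3335. In both genes experiment 3 was the pair that differed most. None was called in MSTO-211H either, where 5.90% of all genes were called higher and 7.94% lower. GCLC went there from 1305 to 3426, 1355 to 1185 and 1089 to 1716 CP20M, and AKR1C1 from 288 to 274, 185 to 36 and 160 to 167. GCLC had 2 pairs higher and 1 lower, and the mean of AKR1C1 rested on experiment 2.

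The difference among the 4 sensitive lines was tested directly (limma, F test on the line-by-treatment terms). It was under an adjusted p of 0.05 for 4 of 9 members, and for 37.1% of all genes. These were AKR1C1 (adjusted p = 0.011), NFE2L2 (0.012), NQO1 (0.016) and GCLM (0.047). For AKR1C1 the 3 pairs of H2452 ran from -2.05 to -1.04 and the 3 of H28 from 0.64 to 2.85. NFE2L2 differed by less, since H2452 was at 0.22 ± 0.03 (SD, n = 3 pairs) and MSTO-211H at -0.33 ± 0.15 (SD, n = 3 pairs). GCLM was at 0.15 ± 0.15 in H2052 (SD, n = 2 pairs) and NQO1 at 0.08 ± 0.27 in H28 (SD, n = 3 pairs), whereas both fell in H2452. HMOX1 (0.22), GCLC (0.15), TXNRD1 (0.28), SRXN1 (0.28) and KEAP1 (0.78) had adjusted p above 0.05, which does not show that their responses were alike.

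AKR1C2 and AKR1C3, next to AKR1C1 on chromosome 10, gave values on the same side in H2452. There AKR1C2 went from 599 to 152, 133 to 78 and 337 to 142 CP20M and AKR1C3 from 5018 to 2261, 2484 to 1338 and 4551 to 1250. Both were called lower, at -1.27 and -1.30 on the log2 scale (limma, adjusted p = 0.038 and 0.025). In H28 the 3 pairs of AKR1C2 were 1617 to 2326, 2499 to 2350 and 552 to 2613, and those of AKR1C3 6384 to 7538, 5480 to 5594 and 3955 to 7523. Experiment 3 of H28 had the lowest DMSO value of all 3 genes. How reads were divided among these paralogues was not tested.

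**Figure D3:**
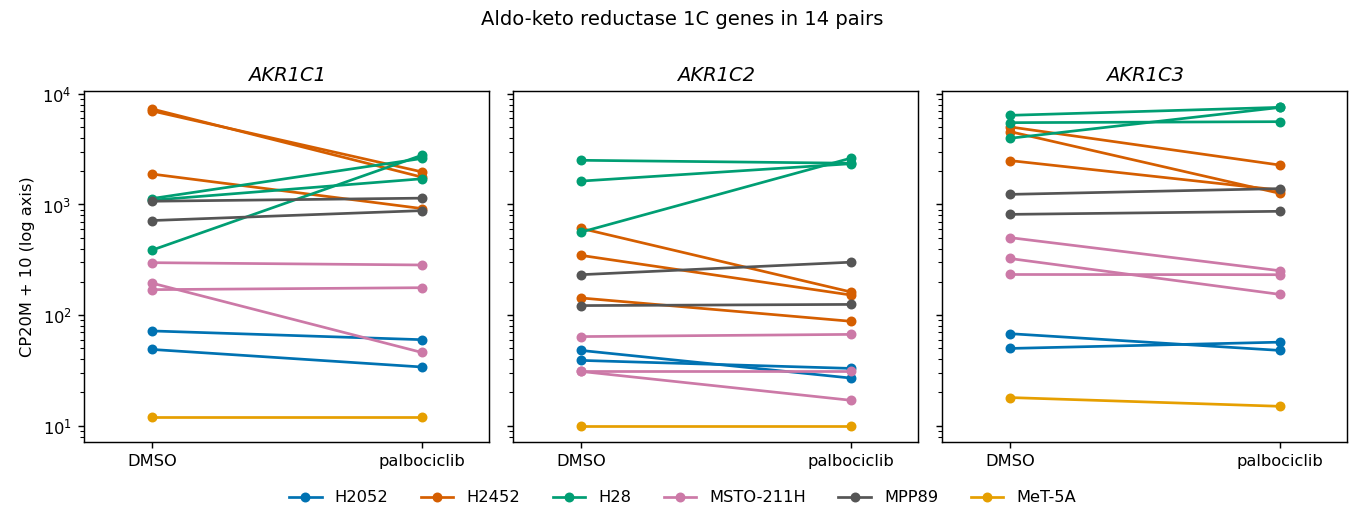
CP20M + 10 on a log axis for AKR1C1, AKR1C2 and AKR1C3 in DMSO and palbociclib, with a line for each of the 14 pairs, coloured by cell line. The H2452 lines slope down in all 3 genes, and those of AKR1C1 in H28 slope up.

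In the resistant lines no member was called, and neither was any of the 17803 genes (0% higher and 0% lower; 1258 genes had an unadjusted p under 0.05). The 9 log2 changes lay between -0.09 ± 0.04 for GCLM and 0.13 ± 0.09 for AKR1C1 (SE, n = 3 pairs). HMOX1 went from 1817 to 1663 and 836 to 842 CP20M in MPP89 and from 1400 to 1351 in MeT-5A, and NQO1 from 5934 to 6127, 6276 to 6528 and 6128 to 5510. The change in sensitive lines minus that in resistant lines was called for none of the 9, beside 1.13% of all genes in the higher and 5.62% in the lower direction. KEAP1 had the smallest adjusted p, at -0.34 ± 0.10 (SE; limma, adjusted p = 0.037), below the fold threshold. For HMOX1 the difference was 0.79 ± 0.44 and for NQO1 -0.52 ± 0.27 (SE; limma, adjusted p = 0.27 and 0.23), which does not show that the classes responded alike.

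The third question was whether the genes returned after 48 hours without the drug. Of the 9 members, 0 were called between washout and palbociclib, beside 1.40% of all genes called higher and 0% lower (limma; 2322 genes had an unadjusted p under 0.05, none of them a member). Against DMSO, 1 of 9 was called higher and 0 lower, beside 2.81% and 2.95% of all genes. That gene was HMOX1. In the order DMSO, palbociclib and washout, H2052 had 1423, 2880 and 2945 CP20M, H2452 954, 2329 and 1356, H28 23826, 31632 and 28425, and MSTO-211H 518, 1694 and 1445. Its washout library was above the matched DMSO library in 4 of 4 lines, with a log2 difference of 0.82 ± 0.20 (SE; limma, adjusted p = 0.033). These experiments had a mean log2 rise with palbociclib of 1.10, beside 0.74 over all 11 sensitive pairs. In H2052 the DMSO library of experiment 1, at 3649 CP20M, was above the washout library. In the other lines the washout library was above every DMSO library of its line. Each line has 1 washout library, and the call was lost without H2052 (adjusted p = 0.15), H2452 (0.071) or MSTO-211H (0.15), and without the line as a block (1).

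As deposited, the other members stayed near their palbociclib values in most lines, with washout minus palbociclib differences between -0.47 and 0.32 on the log2 scale. The median difference of the 9 members was -0.09, and -0.23 or -0.29 with median-of-ratios or upper-quartile scaling. Over all genes these medians were 0.09, -0.04 and -0.09. For NQO1, H2052 had 1911, 1158 and 1165 CP20M, H2452 15443, 6169 and 6539, H28 8729, 11514 and 10516, and MSTO-211H 9909, 8033 and 8300. AKR1C1 had 7008, 1962 and 2444 in H2452 and 376, 2777 and 3227 in H28, so its opposite changes from the matched DMSO library were both still present at 48 hours. The other DMSO libraries were at 1121 and 1083 CP20M in H28 and at 7304 and 1876 in H2452. The sizes of these changes thus depend on the matched library, and in H2452 so does the direction. There the palbociclib and the washout value were both above the DMSO library at 1876 CP20M. Each line had 1 washout library, and over the 4 lines washout minus DMSO was 0.32 ± 0.64 for AKR1C1 (SE; limma, adjusted p = 0.78). KEAP1 was between its palbociclib and DMSO values in 4 of 4 lines, 0.12 ± 0.07 above palbociclib (SE; limma, adjusted p = 0.56), where the median of all genes was 0.09 above, and with median-of-ratios or upper-quartile scaling the KEAP1 difference was -0.02 or -0.08. TXNRD1 was lower after washout than with palbociclib in 4 of 4 lines, with a mean difference of -0.14 on the log2 scale (limma, adjusted p = 0.76). The difference ran from -0.32 in H2052 to -0.003 in H28, which had 28384 CP20M with palbociclib and 28317 after washout.

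**Figure D4:**
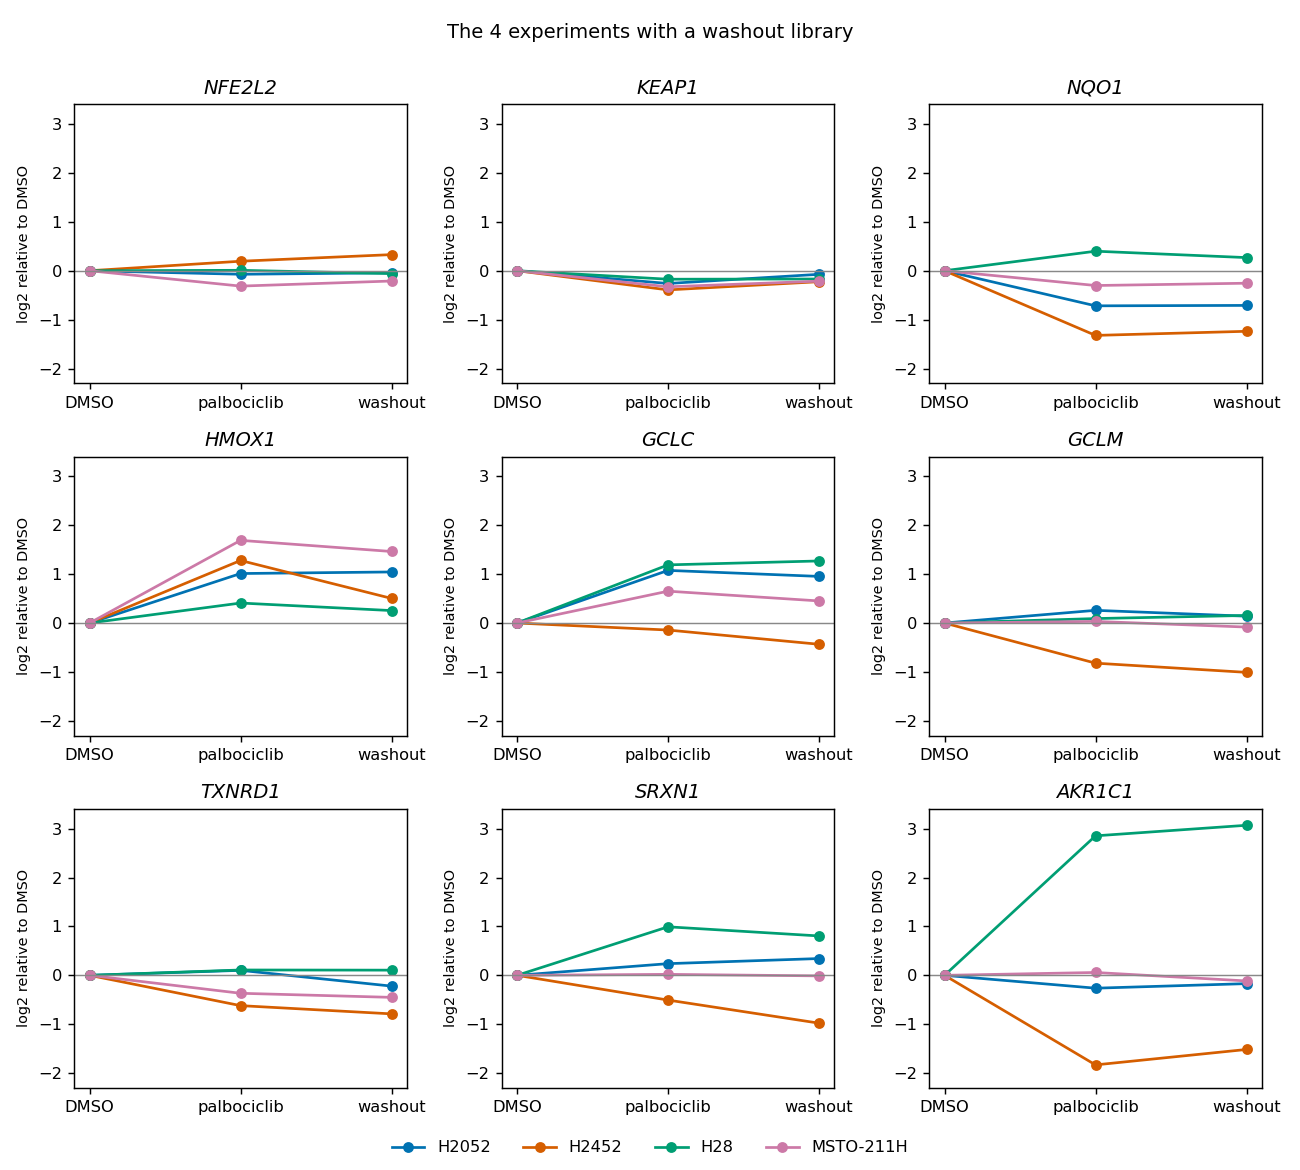
Log2(CP20M + 10) relative to the DMSO library of the same experiment, for the 4 sensitive lines with a washout library (1 library per point). HMOX1 is above 0 after washout in all 4 lines, from 0.25 in H28 to 1.46 in MSTO-211H, and AKR1C1 ends at -1.52 in H2452 and 3.07 in H28. The H28 value of AKR1C1 is set against the lowest DMSO library of that line, at 376 CP20M.

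A set of 63 further genes of the pathway, in 8 lists by role, was examined in the same fits, and 62 of them passed the filter (all but GPX2). Over the 11 sensitive pairs 3 of the 62 were called higher and 3 lower, where 5.58% and 9.37% of all genes were, so the called genes are described singly and not as a trait of the pathway. The median log2 change of the 62 was -0.01, beside the median of -0.11 over all genes. NFE2L1, the paralogue of NRF2 that drives proteasome genes, was called among 10 regulators, with 11 of 11 pairs higher and a log2 change of 0.65 (limma, adjusted p = 5.7e-05). Among 10 genes of the thioredoxin system the called one was TXNIP, which binds and inhibits thioredoxin (0.81, adjusted p = 0.0056, 10 of 11 pairs higher). SOD2, the mitochondrial superoxide dismutase, was called among the 4 superoxide and peroxide enzymes (0.99, adjusted p = 0.0013), from 12229 CP20M at the median of DMSO libraries to 19001 with palbociclib.

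The 3 lower genes came from other lists. TKT, the transketolase of the pentose phosphate pathway, was the called gene of 6 that serve NADPH supply, with 11 of 11 pairs lower, a median of 12484 CP20M in DMSO and 6752 in palbociclib, and a log2 change of -0.89 (limma, adjusted p = 4.4e-05). CBR3, a carbonyl reductase, was the called gene of 12 in detoxification (-0.73, adjusted p = 0.00085), with a median of 207 CP20M in DMSO and 92.0 in palbociclib. PIR (pirin, known as an NRF2 target) was called among 4 other targets (-0.68, adjusted p = 0.00067), from a median of 331 to 213 CP20M. Under median-of-ratios scaling the mean changes were -0.55 for CBR3 and -0.49 for PIR, both short of the fold threshold, and -0.69 for TKT, 0.85 for NFE2L1, 1.00 for TXNIP and 1.19 for SOD2. No gene was called among 9 of glutathione metabolism, where glutathione reductase GSR had the smallest adjusted p (-0.39, adjusted p = 0.0014), or among 7 of haem and iron, where HMOX2, the constitutive haem oxygenase, had it (0.36, adjusted p = 0.0033).

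**Figure D5:**
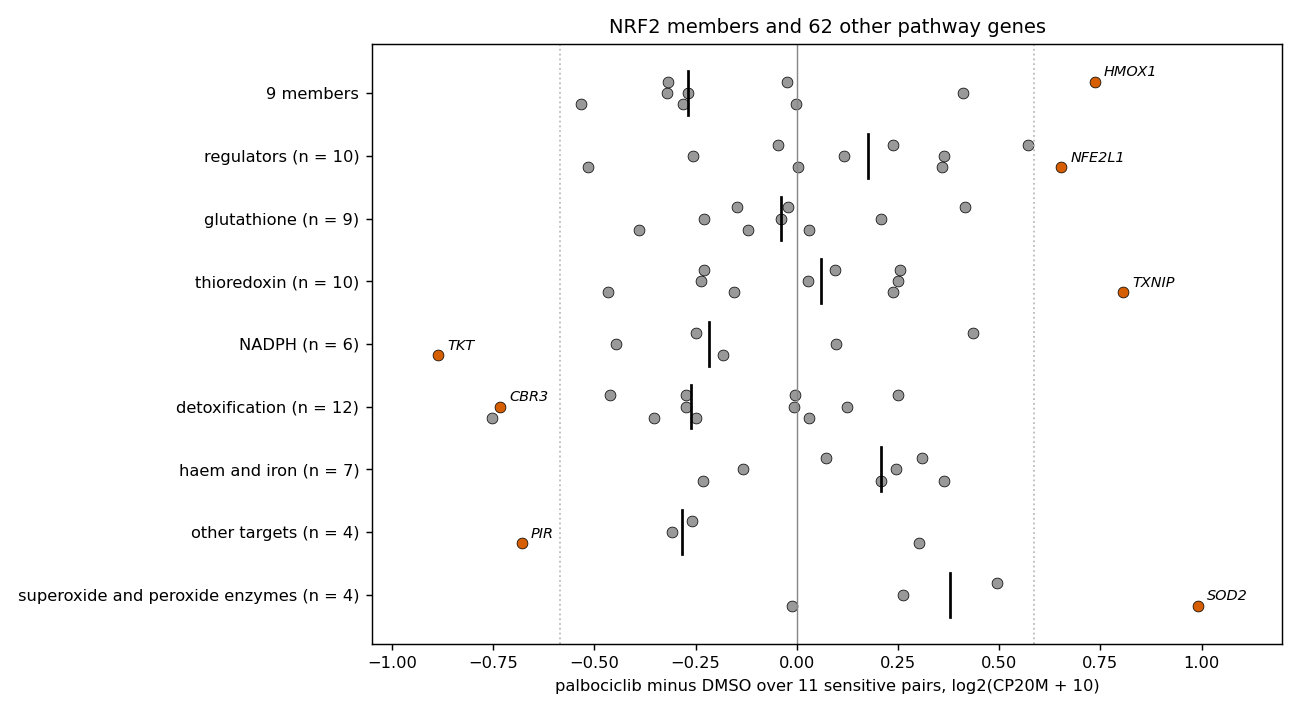
Mean palbociclib minus DMSO over the 11 sensitive pairs, log2(CP20M + 10), for the 9 members and the 62 other genes by list. Orange points passed both thresholds and are named, black bars are list medians and dotted lines mark 1.5-fold. HMOX1 is the named member, and the other named genes run from TKT at -0.89 to SOD2 at 0.99.

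By line, H2452 had 15 of the 62 called (6 higher and 9 lower, beside 6.04% and 10.8% of all genes) and H2052 had 11 (5 higher and 6 lower, beside 4.67% and 13.0%). In H28 it was 4 (2 higher and 2 lower, beside 5.89% and 7.34%), as it was for MSTO-211H (1 higher and 3 lower, beside 5.90% and 7.94%). The detoxification list had the largest share of genes that differed between lines, since 11 of its 12 genes had an adjusted p under 0.05 in the test among sensitive lines, beside 37.1% of all genes. In H2452, 5 of 12 were lower, beside 10.8% of all genes, AKR1B10 by the most (-2.75 on the log2 scale; limma, adjusted p = 0.021), and in H28 none was called. H2052 had 3 of 12 called lower, beside 13.0%, and 1 higher, beside 4.67%, and MSTO-211H had none called. Mean changes were below 0 for 10 of the 12 in H2452, 9 in H2052, 9 in MSTO-211H and 3 in H28. No gene of the list of 62 was called in the resistant lines or between washout and palbociclib. Against DMSO after washout, 2 of 62 were lower, close to the 2.95% of all genes, and these were TKT (-0.83; limma, adjusted p = 0.016) and RBX1, a subunit of the ubiquitin ligase that takes NRF2 from KEAP1 (-0.62, adjusted p = 0.042).

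How far the members move together was described by correlation, over points that share lines, experiments and depth and so are not independent. Over the 33 libraries, the 36 pairs of members had r of log2 levels from -0.138 (HMOX1 and TXNRD1) to 0.745 (HMOX1 and GCLM), with a median of 0.43. For the palbociclib changes over the 14 pairs, r ran from -0.593 (NFE2L2 and GCLC) to 0.891 (NQO1 and AKR1C1). The median r of the changes was 0.23, and 13 of the 36 values were below 0. SRXN1 had 0.846 with AKR1C1 and 0.766 with NQO1, and TXNRD1 and GCLM had 0.713. HMOX1 had no r above 0.235 with any other member in its changes, although it was the called one.

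The genes outside the 9 whose log2 levels over the 33 libraries were most like a member's were, for NFE2L2, MTPAP (r = 0.915), GPBP1L1 and NFKBIL1, and for KEAP1, SPPL2A (0.939), SLC35B2 and GRIP2. They were AC092115.2 (0.985), DNTTIP2 and AL080317.3 for NQO1, ADAMTS9 (0.926), PACSIN2 and NLRP3P1 for HMOX1, AL033397.2 (0.983) and AC018816.1 for GCLC, and SHISA9 (0.954), UQCC2 and SIK1 for GCLM. For TXNRD1 they were ALCAM (0.914), RNF135 and PARP8, for SRXN1 the overlapping AL121758.1 (1.00), HK1 and GPC1, and for AKR1C1 its neighbour AKR1C3 (0.942), AC091729.3 and CLIC1. With 6 lines in the data, such values mainly rank genes by their order over lines.

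For the palbociclib changes over 14 pairs, the most alike genes were MTG2 (r = 0.924), AC092115.2 and GSR for NQO1, MTG2 (0.943), AKR1C2 and AC092115.2 for AKR1C1, and AL121758.1 (0.999), MTG2 and SQSTM1 for SRXN1. They were PGD (0.90), C6orf106 and AKR1B1 for GCLM, AL033397.2 (0.933), TSPAN13 and CHST12 for GCLC, NOCT (0.872), YWHAG and ATP6V1B2 for HMOX1, NFIA (0.875), ATG9A and GPR176 for TXNRD1, PRPF8 (0.893), GNG4 and ASPSCR1 for KEAP1, and ZNF766 (0.936) and EPB41L4A-AS1 for NFE2L2. PGD and GSR, an NADPH-making dehydrogenase and glutathione reductase, were also on the lists of pathway genes.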

How the data were processed

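RNA was extracted from 33 cell line cultures and sequenced as directional paired-end libraries. The authors trimmed reads with Trimmomatic 0.36, aligned them with STAR 2.5.3 to GRCh38, counted them per gene with HTSeq 0.9.1 and Ensembl annotation, and scaled each library to 20000000 reads. The deposited values are a normalized score (CP20M) rounded up to whole numbers, not counts, so no count model was used, although the authors used DESeq2. The most alike replicates shared 4.33% of their values, so none was treated as a duplicate.

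Genes with at least 100 CP20M in 1 of the 33 libraries were kept. Log2(CP20M + 10) was fitted with limma 3.58.1 (eBayes with trend) in R 4.3.3. Fits over the sensitive lines, each line, the resistant lines, the difference between classes and the F test among lines had the experiment as a block, and the washout fits the line. A gene was called at a fold above 1.5 or below 1/1.5 and a Benjamini-Hochberg adjusted p under 0.05 over 17803 genes. The study's methods pair treated and control samples within an experiment. As a check, deviations of same-numbered libraries correlated with r from 0.18 to 0.78, but in MSTO-211H DMSO library 3 correlated more with palbociclib library 1 (0.25) than with its own (0.22). Scripts were tested on simulated data.

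The 9 members, the 63 pathway genes and the markers were chosen with earlier results of these data known. From each pathway list the called genes, at most 2 in each direction, or else the gene with the smallest adjusted p, were named. RBX1, AKR1B10 and the counts by line were added after their values were seen. For likeness the 3 genes with the highest Pearson r were named. One of them, on the Y chromosome, is not listed, and 1 other is not reported here. Alternatives left out the block, the filter, the trend, or each pair or line in turn, set the pseudocount to 1 or 50, filtered within each fit, took line means as units, or rescaled by upper quartiles or medians of ratios. Figures were drawn with matplotlib 3.10.9.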

Additional observations from a re-analysis of the deposited data

Results flagged for a closer look

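The response to palbociclib of 4 members differed among the 4 sensitive lines, beside 37.1% of all genes, by the limma F test on the line-by-treatment terms, with adjusted p of 0.0108 for AKR1C1, 0.0124 for NFE2L2, 0.0159 for NQO1 and 0.0467 for GCLM. The mean log2 change of AKR1C1 in H2452 was -1.64 ± 0.53 (SD, n = 3 pairs) and that in H28 1.57 ± 1.15 (SD, n = 3 pairs), and these lines had all their pairs on opposite sides of 0. Without the block for experiment, 0 of 9 passed this test. For KEAP1 the change in sensitive minus that in resistant lines was -0.34 on the log2 scale with a limma adjusted p of 0.0370, below the fold threshold and not called. Over the alternatives it ran from -0.38 to -0.12, with adjusted p from 0.036 to 0.59, the highest under upper-quartile scaling. Its adjusted p was above 0.05 when any 1 of the 3 resistant pairs was left out. It was lower in 11 of 11 sensitive pairs and in 1 of 3 resistant pairs.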

How the results depend on the processing

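Of 161 counts of called members under an alternative, 137 stayed within 1.5 times the reported count, and of 1079 values of single members 1036 kept their side of the thresholds, 37 lost a call, 6 gained one and 0 reversed a called direction. Over the 11 sensitive pairs (1 called) the count was 0 without the replicate block, 0 with no filter, 0 with line means and 2 with median-of-ratios scaling, and it ran from 1 to 2 when a pair was left out, 2 being without experiment 3 of H28. HMOX1 stayed between 0.60 and 0.93 on the log2 scale, with adjusted p from 0.0035 to 0.059. In H2052 (2 called) the count was 1 with a pseudocount of 1, 1 with median-of-ratios and 1 with upper-quartile scaling, 0 with no filter, 0 without trend and 0 to 0 when either pair was left out, with the spread taken from the other sensitive lines. In H2452 (4 called) it was 1 without the replicate block, 0 with no filter, and 0 to 3 when a pair was left out. A filter within the fit gave 1 call in H28 (AKR1C1) and 1 in MSTO-211H (NQO1), and added HMOX1 in H2052 (0.65, adjusted p = 0.0042). In the test among sensitive lines (4) it was 0 without the replicate block and 1 with no filter. Washout against DMSO (1) had 0 without the replicate block, 0 with no filter and 0 to 1 when a line was left out. Without H2452 GCLC was called there (0.89, adjusted p = 0.032) and HMOX1 was not. The replicate block moved no other count of called members by over 1.5 times. With no filter more genes were tested, and leaving out pairs or lines left fewer samples, while the cause of the other shifts was not tested.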

Other observations

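Levels of several targets also shifted between experiments of a line, in DMSO and palbociclib together. In experiment 2 of H2452, 4 of the 9 members were at least 1.5-fold below the mean of the other experiments in both conditions (log2 scale), beside 3.39% of the tested genes. They were HMOX1, GCLC, SRXN1 and AKR1C1, the last with a difference of -1.93 in DMSO and -1.02 in palbociclib. In experiment 2 of H28 they were GCLC and SRXN1, beside 1.70% of genes, and in experiment 2 of MSTO-211H none, beside 3.88%. In experiment 1 of MSTO-211H, HMOX1 and AKR1C1 were at least 1.5-fold above in both, beside 1.80% of genes. In experiment 3 of H2452 AKR1C1 was the 1 member above in both, beside 1.63% of genes. The mean it was set against included the low experiment 2. In DMSO and palbociclib, AKR1C1 had 7008 and 1962 CP20M in experiment 3, near the 7304 and 1758 of experiment 1. HMOX1 was the 1 member that differed in this way between the 2 experiments of H2052 (experiment 1 higher by 1.35 in DMSO and 0.63 in palbociclib, beside 1.36% of genes) and of MPP89 (by 1.11 and 0.97, beside 2.12%). This comparison was made after the values were seen, and its cause was not tested.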
